A study of Mus musculus with 20 samples.

Results

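The region described here is a stretch of 120 kb on mouse chromosome 9, chr9:115980001-116100000 in the mm9 genome build, that holds the start of Tgfbr2, the gene of the type II receptor for transforming growth factor β (TGF-β). Its members were all CpG cytosines of either strand with at least 10 reads in at least 4 of the 5 libraries of each group. They were taken singly and summed over fixed windows of 1 kb. The rule kept 189 of the 308 cytosines that at least 1 library listed in the region, out of 1730534 kept on all autosomes. The 189 cytosines lay in 20 of the 120 windows. Of these, 15 windows held at least 3 kept cytosines and were tested beside all others, 127276 windows in all. The other 5 windows held 1 or 2 cytosines and are described from them, and 100 windows held none. The region was selected on methylation levels: its window chr9:116075001-116076000 had one of the largest differences between the early and late wild-type fractions in an earlier pass over these data. Levels in the wild-type (WT) maturation comparison (CD34− minus CD34+, late minus early) are therefore given as a description, with no test. The levels of the PML-RARα libraries took no part in the choice. Tests over all windows or cytosines estimated the spread from all 20 libraries, so they are not fully independent of it.

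TGF-β ligands bind the type II receptor, a serine/threonine kinase, which then recruits and phosphorylates the type I receptor (Tgfbr1). The type I receptor passes the signal to SMAD proteins that enter the nucleus, and in blood formation the pathway is known for restraining the growth of progenitor cells. In mammals most cytosines before a guanine are methylated, while clusters of them at gene starts (CpG islands) are usually not. CpGs inside genes and between them can gain or lose methylation as a cell type matures.

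Methylation was measured by enhanced reduced representation bisulfite sequencing (ERRBS), which reads CpG-rich restriction fragments after bisulfite treatment, in promyelocytes of FVB/n mice. Promyelocytes are granulocyte precursors, and PML-RARα is the fusion protein of acute promyelocytic leukaemia. The 20 libraries form 4 groups of 5. WT control mice and transgenic mice with PML-RARα each gave an early fraction, promyelocytes positive for CD34 (CD34+), and a late fraction without it (CD34−). The promoter that drives the transgene, the age of the animals and whether each library is from another animal are not given in the sources used here, so p-values measure the spread between libraries, which may in part be technical. No expression values are used here, so the sorted fractions were not checked against marker genes. Libraries are named by the running number in their titles, from 1 to 20: 1, 7, 9, 15 and 17 are WT CD34+, 2, 8, 10, 16 and 18 are WT CD34−, 3, 5, 11, 13 and 19 are PML-RARα CD34+, and 4, 6, 12, 14 and 20 are PML-RARα CD34−. Summed coverage ranged from 83631324 to 362881291 per library, with a median of 32 to 150 reads per listed cytosine. The level of a cytosine or window is the percent of its reads that kept C. It does not tell a change in every cell from a change in the share of cells. Earlier results on these data had shown high scatter between cytosines in 5 libraries (1, 5, 6, 11 and 12). The main PML-RARα differences that rest on them are given with and without them, and others over all libraries only.

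The start of Tgfbr2 was found from its promoter, which is shown because every distance below is counted from it and because its CpGs can be set beside the measured cytosines. The RefSeq sequence of 300 bases, from 250 before to 50 after the start, lies on the minus strand at chr9:116175314-116175613 of the GRCm38.p6 build and reads, with each of its 15 CpGs in capitals:
Tgfbr2 promoter: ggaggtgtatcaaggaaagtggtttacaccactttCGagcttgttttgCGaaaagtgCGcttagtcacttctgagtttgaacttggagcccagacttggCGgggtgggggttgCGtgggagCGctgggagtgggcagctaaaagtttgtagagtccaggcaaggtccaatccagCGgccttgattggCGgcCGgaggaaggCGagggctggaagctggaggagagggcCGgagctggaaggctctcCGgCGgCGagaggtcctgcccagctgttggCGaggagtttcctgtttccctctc
The spacing and strand of these CpGs matched the cytosines listed in the files at chr9:116084432-116084731 of mm9. All 11 cytosines listed there fell on a CpG of the sequence, and no other place on chromosome 9 or on the 18 other autosomes matched. This puts the start at position 116084481, with transcription toward lower positions. Positions below 116084481 are called downstream of the start. Whether a window lies in an exon or an intron was not analysed here, because no mm9 annotation was used.

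Methylation at the start of Tgfbr2 was close to 0 in every library. The windows chr9:116083001-116084000 and chr9:116084001-116085000 held 107 of the 189 cytosines within 977 bp, from 0.917 kb downstream to 59 bp upstream of the start. Over both windows the level was 0.121% ± 0.0690 (SD, n = 5) in WT CD34+, 0.133% ± 0.0891 in WT CD34−, 0.0928% ± 0.0265 in PML-RARα CD34+ and 0.173% ± 0.220 in PML-RARα CD34− libraries (SD, n = 5 each). These levels rest on 5128 to 25233 summed reads per library. The highest level of a single library in either window was 1.24%, in library 12 (PML-RARα CD34−). In 98 of the 107 cytosines every group mean was below 1%, and the highest group mean of any of them was 5.53%, at position 116083582. Of the 11 cytosines inside the printed promoter, the pooled level was at most 0.257% in any library. In PML-RARα maturation (CD34− minus CD34+) the windows differed by 0.23 and 0.017 percentage points (quasi-binomial test, adjusted p = 0.891 and 0.957). Without library 12 the first difference was 0.00295 points, and without all 5 libraries of high scatter the differences were 0.0530 and -0.0276 points.

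Outside this island the 82 remaining cytosines covered the full range of levels, and the 20 windows fell into a few kinds. Averaged over all libraries, 7 windows were above 80%, 10 were between 20% and 80% and 3 were below 20%, of which 2 were the island. Of all tested windows on the autosomes, 17.9% lay between 20% and 80%. The windows above 80% lay between 45.5 and 101.3 kb downstream of the start. The single cytosine kept upstream of the island, 7.9 kb from the start, was low in all groups, between 3.50% ± 3.27 (PML-RARα CD34−) and 9.24% ± 10.3 (PML-RARα CD34+, SD, n = 5 each).

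**Figure D1:**
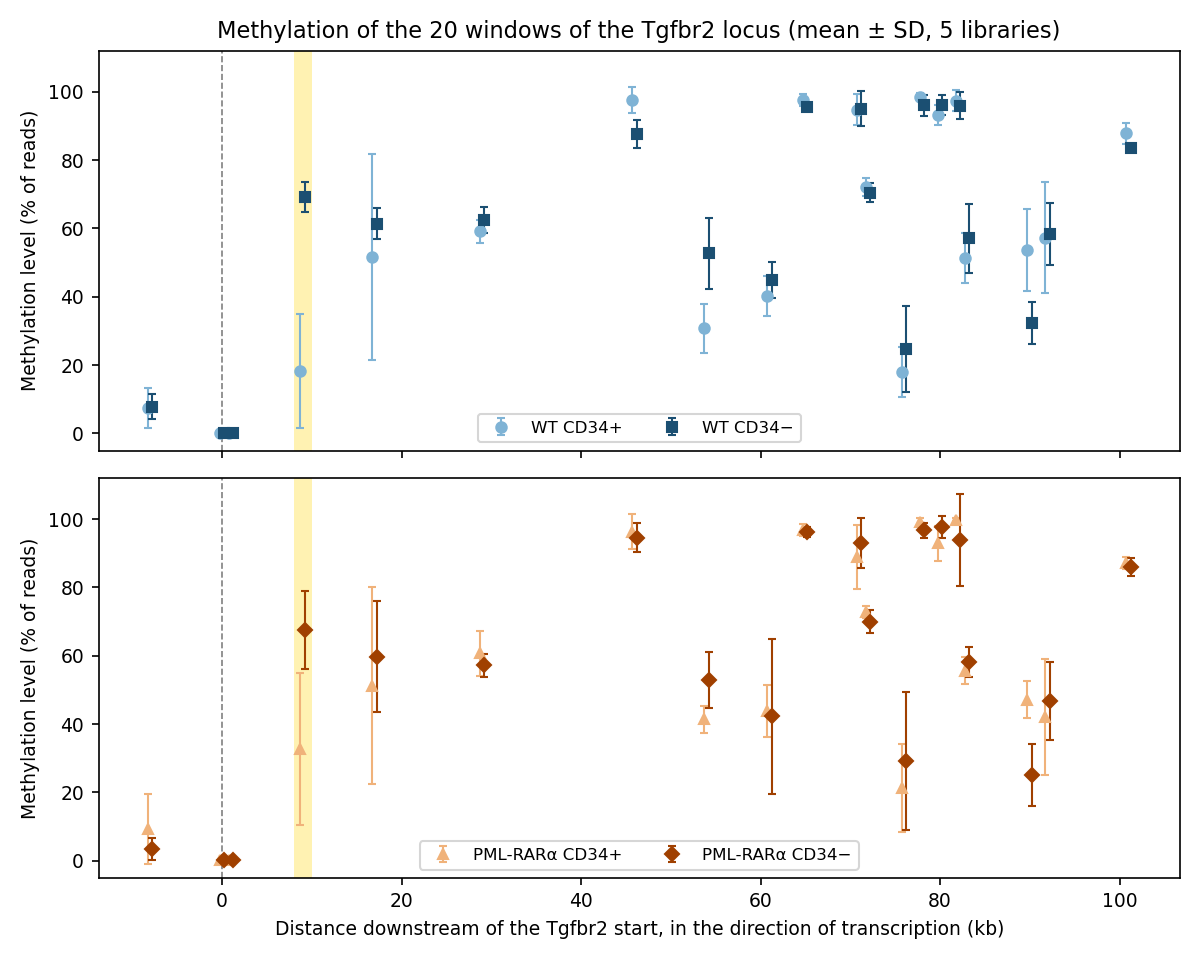
Mean methylation level (percent of reads, vertical axis) of the 20 windows against their distance downstream of the Tgfbr2 start in kb (horizontal axis, dashed line at the start), for WT (upper panel) and PML-RARα libraries (lower panel), with bars of 1 SD over up to 5 libraries. The yellow band marks the window for which the region was chosen, where the CD34− means of 69.2% and 67.6% stand above the CD34+ means of 18.2% and 32.8%, and the island at the start stays near 0.

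The window that named the region, chr9:116075001-116076000, held 4 cytosines of the minus strand at positions 116075559, 116075572, 116075576 and 116075617. They lay within 59 bp, 8.9 kb downstream of the start and 7.947 kb from the nearest island cytosine. In WT CD34+ libraries its level was 0% in library 1, 16.0% in 7, 12.2% in 9, 45.5% in 15 and 17.4% in 17. In WT CD34− libraries it was 66.4% in library 2, 66.5% in 8, 65.5% in 10, 76.0% in 16 and 71.5% in 18. The late libraries lay close together and all above the early ones, which were spread widely. The means were 18.2% ± 16.7 and 69.2% ± 4.48 (SD, n = 5 each), a difference of 51.0 points that ranked 2 from the top of the 127276 tested windows.

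The PML-RARα libraries, which took no part in the choice, differed in the same direction. In PML-RARα CD34+ libraries the level was 60.7% in library 3, 0.781% in 5, 44.2% in 11, 32.0% in 13 and 26.4% in 19. In PML-RARα CD34− libraries it was 50.9% in library 4, 75.1% in 6, 66.4% in 12, 64.9% in 14 and 80.8% in 20. The groups overlapped by 1 library, since early library 3 stood above late library 4. The means were 32.8% ± 22.2 and 67.6% ± 11.4 (SD, n = 5 each), and the late mean was higher by 34.8 points, rank 5 from the top of all tested windows. An exact permutation test of the 10 library levels gave p = 0.0159 (two-sided, 252 rearrangements, of which the smallest possible p is 0.00794). The test treated the 10 libraries as unpaired. If early and late libraries of consecutive running numbers share a source, which no label states, this p does not apply. The late library was higher in 4 of these 5 pairs of consecutive numbers.

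Across all windows this difference did not pass the adjusted threshold. The quasi-binomial test gave an unadjusted p of 0.000206 and an adjusted p of 0.0984, and limma on logit levels an adjusted p of 0.649. Both tests estimated the spread from all 20 libraries, so they also draw on the WT values that chose this window. A call was an adjusted p below 0.05 with at least 10 points. In PML-RARα maturation 71 of all tested windows were called, 0.0558%, and of the 15 in the region 0 were called, by this test or by limma, which called 0.0196% of all. At an unadjusted p below 0.05 there were 3 of 15 in the region and 9.42% of all windows. The adjusted p passed the threshold, at 0.0452, only when WT CD34+ library 15 was left out, which enters through the shared estimate of spread. Without the 5 libraries of high scatter the difference was 25.8 points (adjusted p = 0.398).

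The sign of the difference was the same within each batch that held both fractions. PML-RARα libraries of both fractions shared only 1 flowcell, with 3 early and 2 late libraries, where the late mean was higher by 23.4 points. WT libraries shared 3 flowcells, with 1 or 2 libraries of each fraction, and the late mean was higher by 65.1, 50.6 and 37.1 points there. The titles also carry a number 1 or 2 of unstated meaning. Under number 1 the difference was 58.0 points in WT and 53.6 in PML-RARα libraries, and under number 2 it was 40.5 and 22.3 points. With flowcell as a factor the adjusted p of the PML-RARα difference was 0.616. Flowcell and fraction are largely confounded in the PML-RARα groups and cannot be told apart there.

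**Figure D2:**
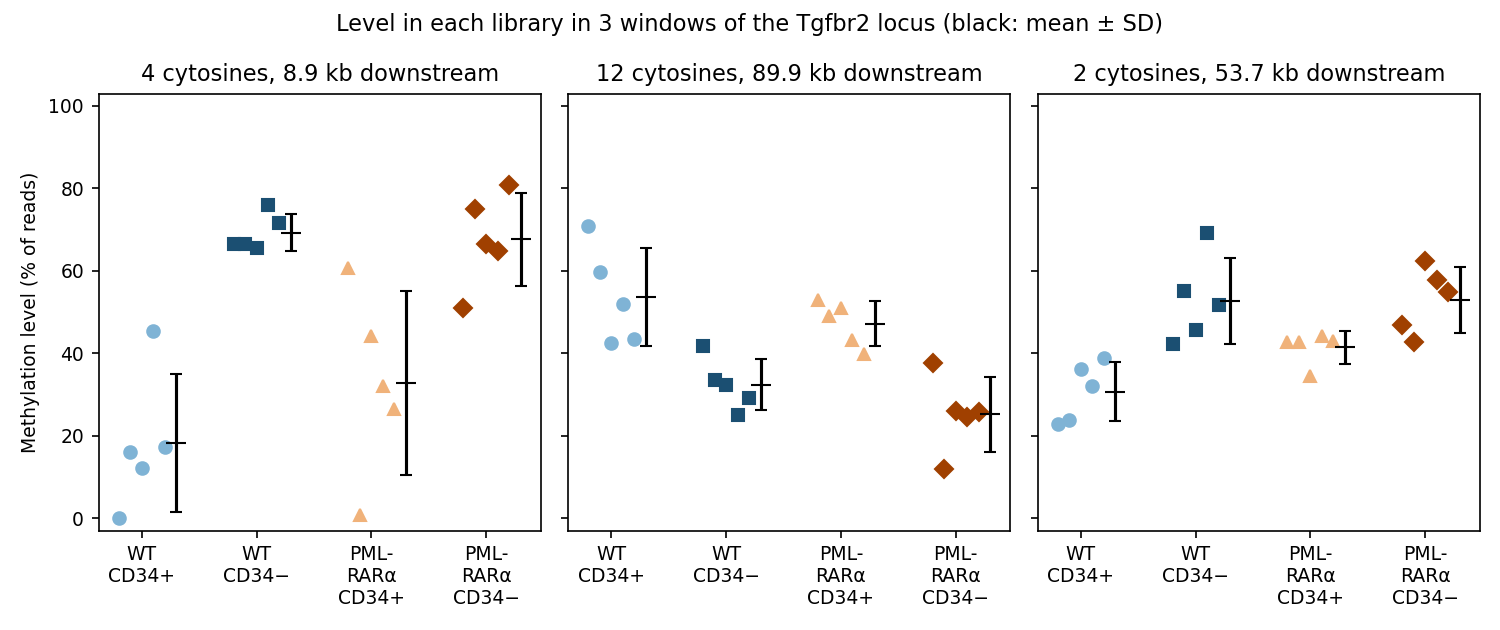
Methylation level (percent of reads, vertical axis) of each library (points) by group (horizontal axis) in the windows 8.9, 89.9 and 53.7 kb downstream of the Tgfbr2 start, with the mean and 1 SD in black. In the left panel early PML-RARα library 3 stands at 60.7%, above late library 4 at 50.9%, while in the middle panel the lowest early library of each genotype stands above the highest late one.

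The 4 cytosines of this window stood at different levels within most libraries, on nearly the same number of reads. Reads per cytosine ran from 21 to 201 and differed by at most 5 among the 4 cytosines of a library. The second cytosine, 116075572, was the highest or tied for it in 17 of 20 libraries, and the last, 116075617, the lowest or tied in 15 of 20. At 116075559 the mean was 14.9% in WT CD34+, 70.0% in WT CD34−, 31.3% in PML-RARα CD34+ and 65.5% in PML-RARα CD34− libraries. At 116075572 the means in the same order were 26.1%, 84.1%, 42.7% and 87.0%, and at 116075576 they were 18.1%, 68.9%, 36.9% and 79.9%. The last cytosine, 116075617, showed the smallest late levels in both genotypes, with 13.7%, 54.2%, 20.4% and 38.1%. In PML-RARα maturation the cytosines differed by 34.2, 44.3, 43.0 and 17.7 points (quasi-binomial test, adjusted p = 0.362, 0.290, 0.330 and 0.636). Without the 5 libraries of high scatter the differences were 17.2, 39.1, 29.0 and 18.1 points. At the last cytosine late library 6 had no methylated read, and without it alone the late mean was 47.6% and the difference 27.2 points.

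In 3 libraries all 4 cytosines stood at the ends of the scale, below 5% or above 95%. WT CD34+ library 1 had 0 methylated of 38 reads at each, which allows a share of up to 7.89% if each read is a separate molecule. PML-RARα CD34+ library 5 had between 0% and 3.12%. In PML-RARα CD34− library 6 the first 3 cytosines were at 100% and the last at 0%. All 3 are among the 5 libraries of high scatter. PML-RARα CD34− library 20 also reached 100% at 116075572 and 95.4% at 116075576, but not at the other cytosines. The 95% Wilson intervals of single cytosines had half-widths of 0.942 to 19.2 points. Both the limit and the intervals are too narrow where several reads are copies of 1 molecule, which these reads cannot show.

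**Figure D3:**
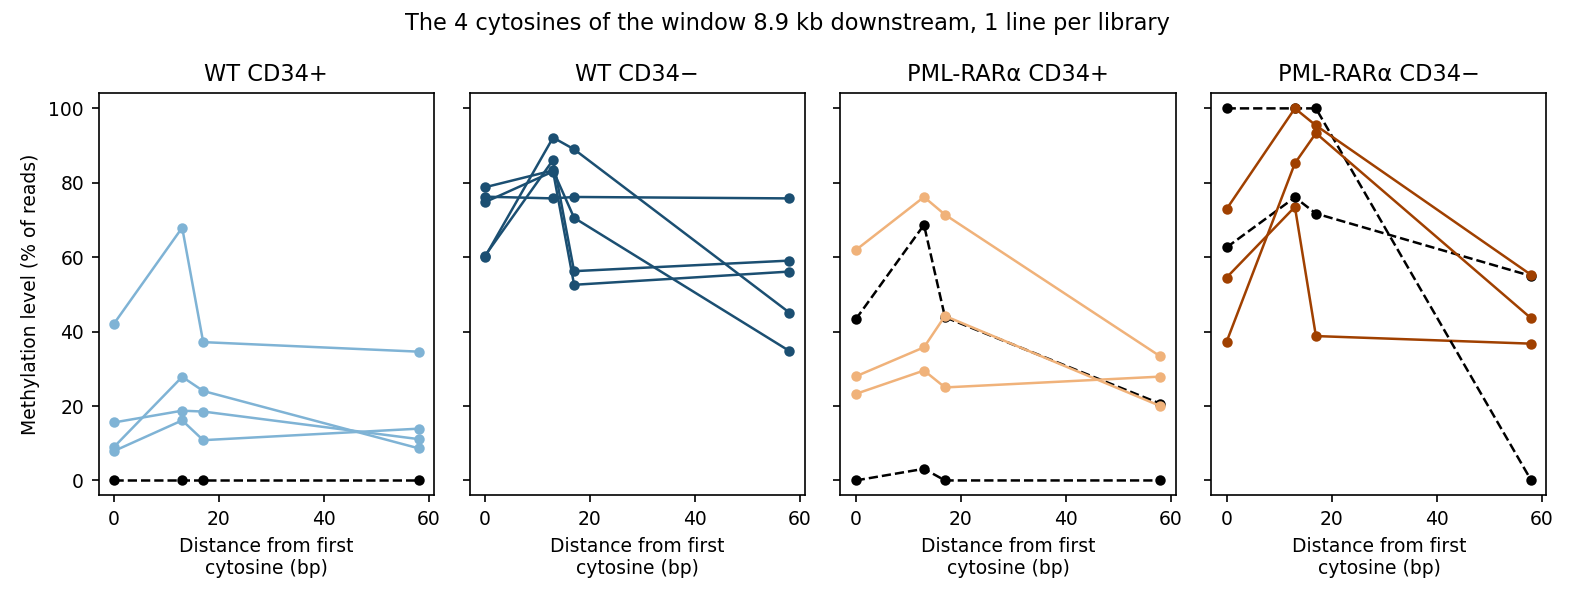
Methylation level (percent of reads, vertical axis) of the 4 cytosines 8.9 kb downstream of the Tgfbr2 start against their distance in bp from the first (horizontal axis), 1 line per library and 1 panel per group, with the 5 libraries of high scatter dashed in black. Most lines peak at the second cytosine and end lower at the last, and library 6 falls from 100% to 0%.

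A window far downstream, chr9:115994001-115995000, 89.9 kb from the start, differed in the opposite direction in both genotypes. In WT CD34+ libraries its level was 70.9% in library 1, 59.8% in 7, 42.4% in 9, 51.9% in 15 and 43.5% in 17, and it was 41.9% in 2, 33.5% in 8, 32.2% in 10, 25.2% in 16 and 29.2% in 18 among WT CD34− ones. In PML-RARα CD34+ libraries it was 52.8% in library 3, 48.9% in 5, 50.9% in 11, 43.2% in 13 and 39.9% in 19, and it was 37.5% in 4, 11.9% in 6, 26.1% in 12, 24.5% in 14 and 25.9% in 20 among PML-RARα CD34− ones. Early and late libraries did not overlap in either genotype. The WT difference was -21.3 points, given as a description. In PML-RARα libraries the means were 47.2% ± 5.42 and 25.2% ± 9.11 (SD, n = 5 each), and the difference of -22.0 points had an adjusted p of 0.184 by the quasi-binomial test and 0.408 by limma. It was the only 1 of the 15 tested windows of the region, and of all 20, whose PML-RARα groups did not overlap. Of all tested windows this was so in 1.09%, and the WT groups did not overlap in 2.1%. Within the flowcell that holds both PML-RARα fractions the difference was -19 points. The unweighted mean of its cytosines gave -12.9 points, and the fit without the 5 libraries of high scatter -16. The lack of overlap holds for levels weighted by reads. In unweighted means late library 20, which listed neither 115994941 nor 115994988, stood slightly above early library 19.

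The 12 cytosines of this window held very different levels, and the differences were largest at 4 of them. The fewest cytosines a library listed there were 8, and 16 libraries listed all 12. Averaged over libraries they ran from 8.38% to 93.6%. At 115994784 the mean went from 37.3% ± 18.5 in WT CD34+ to 1.03% ± 1.46 in WT CD34− libraries (SD, n = 5 each). In PML-RARα CD34+ libraries the same cytosine read 39.0% in library 3, 35.2% in 5, 28.6% in 11, 14.9% in 13 and 23.3% in 19. In all 5 PML-RARα CD34− libraries no methylated read was found among 47 to 122 reads (quasi-binomial test, adjusted p = 0.126).

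The next CpG, 37 bp further, was measured on both strands, and both gave like values. Its plus-strand cytosine 115994821 stood at 50.02% in WT CD34+, 9.32% in WT CD34−, 38.5% in PML-RARα CD34+ and 2.90% in PML-RARα CD34− libraries. Its minus-strand partner 115994822 stood at 59.9%, 16.8%, 40.2% and 6.01% in the same order. The PML-RARα differences were -35.6 and -34.2 points (quasi-binomial test, adjusted p = 0.187 and 0.336), and -26.3 and -34.8 points without the 5 libraries of high scatter. The fourth cytosine with separate groups, 115994209, stood at 73.1% and 26.0% in PML-RARα CD34+ and CD34− libraries (adjusted p = 0.464), over 4 libraries each, a difference of -47.1 points that was -30.6 without the libraries of high scatter. Its partner on the other strand, 115994210, went the other way, from 63.4% to 76.0%. These 4 were the only cytosines of the 189 whose PML-RARα groups did not overlap, all lower in CD34−, against 0.41% of all cytosines.

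**Figure D4:**
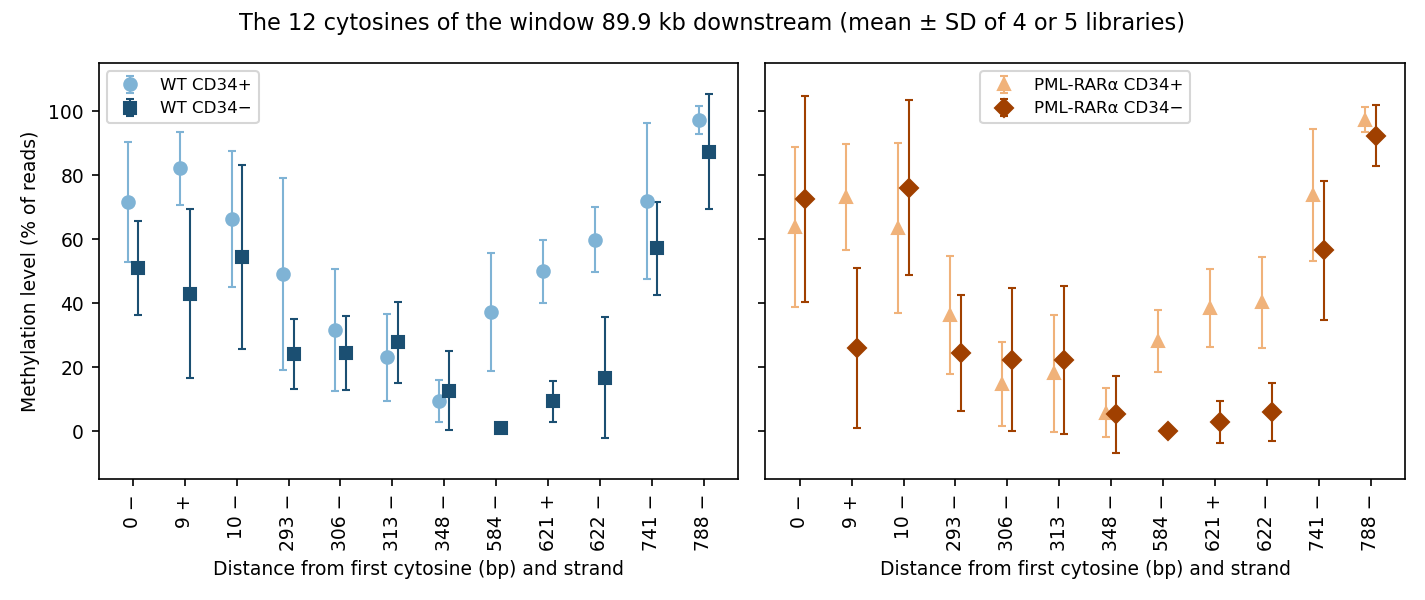
Mean methylation level (percent of reads, vertical axis, bars of 1 SD over 4 or 5 libraries) of the 12 cytosines 89.9 kb downstream of the Tgfbr2 start, in order of position and labelled by distance in bp and strand (horizontal axis), for WT (left) and PML-RARα libraries (right). The CD34− means of the cytosines at 584, 621 and 622 bp lie well below the CD34+ means in both panels, and those of the cytosines at 306 to 348 bp lie close together.

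Besides these, 1 more window differed by at least 10 points in both genotypes. In PML-RARα maturation differences of that size were found in 2 of the 15 tested windows, beside 4.64% of all tested windows, and in 1 of the 5 windows too small to be tested, described here. It held 2 minus-strand cytosines, 116030782 and 116030809, 53.7 kb downstream of the start, too few for the window test. In PML-RARα CD34+ libraries the level was 42.7% in library 3, 42.9% in 5, 34.5% in 11, 44.3% in 13 and 43.1% in 19. In PML-RARα CD34− libraries it was 46.8% in library 4, 42.7% in 6, 62.5% in 12, 57.8% in 14 and 54.8% in 20. Of the late libraries only library 6 lay within the early range, and the late mean was higher by 11.4 points, or by 9.78 points without the 5 libraries of high scatter. The WT means were 30.7% ± 7.21 and 52.8% ± 10.4 (SD, n = 5 each), with no overlap between the groups, as in 2.1% of all tested windows. In the test of single cytosines the PML-RARα difference was 14.5 points at 116030782 and 8.37 points at 116030809 (quasi-binomial test, adjusted p = 0.411 and 0.787). Only 28 to 360 summed reads per library lay behind these levels.

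In the other 17 windows the PML-RARα difference was at most 8.48 points in size. That value, 16.7 kb downstream, rests on early library 11 at 0%, and without it the difference was -4.34 points. Without the 5 libraries of high scatter the largest of the 17 was 15.6 points, 76.1 kb downstream, where all libraries gave 8.03 points. The cytosine upstream of the island then differed by -11.9 points, against -5.74 with all libraries, and the window 91.6 kb downstream by -5.41 against 4.49 points. Over the 15 tested windows the median difference was 0.017 points in PML-RARα maturation, beside -0.12 over all tested windows. In WT maturation it was 1.21 points, beside -0.37 over all. Of the 20 windows, 10 were higher and 10 lower in PML-RARα CD34− libraries, and 12 were higher and 8 lower in WT CD34− libraries. The WT and PML-RARα maturation comparisons share flowcells but no library, and 16 of the 20 windows had the same sign in both. The 20 include the window chosen for its WT difference and those too small to be tested. The like share over all windows was not computed, so nothing is concluded from this count. Besides those at 8.9 and 89.9 kb, that 79.6 kb downstream was the only tested window with an unadjusted PML-RARα p below 0.05. It stood at 92.9% ± 5.10 in CD34+ and 97.7% ± 3.11 in CD34− PML-RARα libraries (SD, n = 5 each, quasi-binomial test, adjusted p = 0.492). At 45.5 kb the means were 97.6% ± 3.89 and 87.6% ± 4.17 in WT libraries (SD, n = 5 each), and 96.3% ± 5.18 and 94.6% ± 4.33 in PML-RARα libraries, over 4 early ones because library 5 listed no cytosine there (SD, n = 4 and 5). At 60.7 kb the PML-RARα CD34− libraries were spread from 17.3% in library 12 to 74.0% in library 6, and the early ones from 36.8% to 56.3% (adjusted p = 0.973). Of the other windows above 80%, the 8 cytosines 65.2 kb downstream had group means between 95.4% and 97.6%, and the windows at 101.3, 82.4, 77.6 and 71.2 kb between 83.6% and 99.8%. Single libraries went as low as 69.8% at 82.4 kb and 77.0% at 71.2 kb.

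Single cytosines gave no call in PML-RARα maturation. Of all 1730534 cytosines 34 were called there, 0.00196%, and of the 189 in the region 0 were, with a lowest adjusted p of 0.126. At an unadjusted p below 0.05 there were 16 of 189, beside 8.53% of all cytosines. Outside the window that named the region, the 5 cytosines with the largest higher levels in PML-RARα CD34− were 116001584 (26.1 points), 116023794 (23.1), 115992704 (18.6), 115992994 (17.6) and 116001585 (16.3). Their adjusted p-values were 0.613 or above, and early and late libraries overlapped at each. These differences are over all libraries only. At 116001584 libraries of high scatter stood at the ends: the lowest early library was 5, at 0%. The highest late ones were 6 and 12, at 97.4% and 75%. The 5 with the largest lower levels were 115994209, 115994821, 115994822 and 115994784, described above, and 116001406 at -17.6 points (adjusted p = 0.691).

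Several windows of intermediate level were mixtures of cytosines that read high and cytosines that read at or near 0. Whether each of these positions is a CpG in FVB/n mice was not tested. Of the 3 cytosines 16.7 kb downstream, the plus-strand 1 at 116067674 was at 0 in every library and the 2 on the minus strand had group means of at least 94.6%. The window level was 0% in WT CD34+ library 1 and PML-RARα CD34+ library 11, which listed no more than the plus-strand 1 of the 3. In the window 76.1 kb downstream, 4 plus-strand cytosines had group means of at most 1.87% and 2 minus-strand cytosines had means of 59.5% to 93.8%. By contrast, the 6 cytosines 29.2 kb downstream averaged 56.1% to 66.3% each, and the window stood at 59.1% ± 3.44, 62.4% ± 3.88, 60.7% ± 6.68 and 57.3% ± 3.35 in WT CD34+, WT CD34−, PML-RARα CD34+ and PML-RARα CD34− libraries (SD, n = 5 each). In all, 31 of the 189 cytosines were at 0 in every library.

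Between the genotypes nothing in the region outside the window that named it was called. In CD34+ libraries 4 of all tested windows were called, 0.00314%, and in CD34− libraries 1, 0.000786%. None of these was in the region, neither by the quasi-binomial test nor by limma, and at an unadjusted p below 0.05 there were 0 of the other 14 tested windows in either fraction, leaving out the window that named the region, beside 4.19% and 7.79% of all windows. At the window that named the region the PML-RARα mean minus the WT mean was 14.6 points in CD34+ and -1.59 points in CD34−, values that are not tested because the WT libraries chose that window. Among the other 14 tested windows the largest difference was 15.0 points in CD34+ and 11.8 points in CD34−, both at chr9:115992001-115993000, where PML-RARα libraries were lower. That window stood at 57.2% ± 16.3 in WT and 42.2% ± 17.0 in PML-RARα CD34+ libraries (unadjusted p = 0.221), and at 58.4% ± 9.13 and 46.7% ± 11.4 in the CD34− ones (SD, n = 5 each, quasi-binomial test, adjusted p = 0.714). Of single cytosines 5.78e-05% were called in each fraction and none in the region, where the lowest adjusted p was 0.880 in CD34+ and 0.478 in CD34−.

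Whether maturation differed between genotypes was tested by the interaction of genotype and fraction. It was called at 0 of all tested windows by the quasi-binomial test, and 5.16% had an unadjusted p below 0.05. Of the 14 tested windows other than the 1 that named the region 0 did, and their lowest adjusted p was 0.970. The lack of calls does not show that maturation is alike in both genotypes at this locus.

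Promoters of other genes of the pathway were looked up in the same way, by the spacing and strand of their CpGs. Of 20 genes listed, 13 had a RefSeq promoter and 6 of these could be placed, with 7 promoters. Of the 16 promoters searched, 7 also matched a place on another autosome with at least 10 listed cytosines, so spacing alone can match wrongly. Tgif1 and the second Ltbp1 promoter were placed on 10 listed cytosines, the fewest allowed. The receptor partner Tgfbr1 had group means of at most 0.119%, and the inhibitors Smad6 (an inhibitory SMAD) and Tgif1 (a corepressor of SMAD transcription) of at most 0.0825% and 0.134%. The ligand Tgfb1 had group means of at most 0.156% except in PML-RARα CD34+, where it was 2.57% ± 5.57 (SD, n = 5) with 1 library at 12.5%. Ltbp1, which binds latent TGF-β, had 1 promoter with group means from 0.361% to 1.10% and another from 55.7% to 61.9%. No window that held a placed promoter was called in any of the 4 comparisons. Of all tested windows 0.427% were called in WT and 0.0558% in PML-RARα maturation. Between genotypes 0.00314% were called in CD34+ and 0.000786% in CD34− libraries. With shares this small, nothing is concluded about these promoters from the lack of calls.

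The windows elsewhere whose level followed that of the window 8.9 kb downstream most closely are given as a description. Over the 20 libraries and 114448 windows compared, Pearson's r was highest, at 0.924, for chr8:125287001-125288000, which stood at 65.7% and 81.8% in WT and 69.7% and 83.0% in PML-RARα CD34+ and CD34− libraries. The others were chr4:45559001-45560000 (r = 0.900), chr1:75186001-75187000 (r = 0.894), chr4:9717001-9718000 (r = 0.892) and chr5:125906001-125907000 (r = 0.877). The 20 points share their libraries, their depth and the split into early and late fractions, so windows chosen in this way share its direction and were not tested.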

How the data were processed

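The authors deposited, for each of 20 ERRBS libraries, a table of CpG cytosines that gives its read count (coverage) and the shares of C and of T reads in percent, as the deposited columns are headed. The submitters' processing notes name CASAVA 1.8.2, Bismark and mm9. Every deposited cytosine had at least 10 reads, and reads with C came out as whole numbers at 100% of cytosines within rounding. Libraries were not pooled.

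Reads with C and with C or T were summed over the kept cytosines of each window of 1000 bp. A quasi-binomial regression of these reads on the 4 groups was run per window and per cytosine over all 20 libraries. Its overdispersion was shrunk by the squeezeVar method of limma (prior degrees of freedom 3.45 for windows) and not allowed below 1. Deviance F tests gave two-sided p-values, adjusted by Benjamini-Hochberg over all windows or all cytosines. A call needed an adjusted p below 0.05 and 10 points between means of library levels. The second test was limma 3.58.1 in R 4.3.3 on logit levels with 0.5 reads added, and Python 3.11.15 with scipy 1.17.1 did the rest. Intervals cover counting error only, since reads carry no molecular identifiers.

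In simulated PML-RARα maturation data on 127276 windows, 11.0% of gains and 7.0% of losses of 10 points were called, 54.5% and 53.5% of those of 20 points, and 85.5% and 79.5% of those of 30 points. Of all calls 5.83% were false, and 8.12% of unchanged windows had an unadjusted p below 0.05. Changes were placed only in windows of middle level. The spread of a window was the same for all libraries, with no flowcell effect and no libraries of higher scatter. The rates hold for these settings and may be lower in the measured data.

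The region, gene list and tests were chosen with earlier results of these data known. Named were all windows of the region, all cytosines of the window that named it, the 5 largest other cytosine differences in each direction in PML-RARα maturation, and the 5 windows elsewhere with the highest correlation. Promoters were placed where at least 10 listed cytosines fell on their CpGs at exactly 1 place. The further condition that no place on another autosome held more than 50% as many was added after the first matches were seen. Alternatives were a coverage minimum of 20, all 20 libraries required, limma, only the 2 groups fitted, flowcell or title number as a factor, each library or the 5 of high scatter left out, unweighted means, a grid shifted by 500 bp and windows of 1 cytosine or more. A block of consecutive running numbers and values without single libraries were added after the data were seen.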

Additional observations from a re-analysis of the deposited data

Results flagged for a closer look

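A library was singled out where its gap to the nearest of its group exceeded Dixon's 95% limit. This was so in 9 of 96 groups of library levels, and 7 of the 9 came from the libraries of high scatter. Chance would give about 4.8 if levels were normally distributed and the groups independent. Some groups are tied at 100% and the groups share libraries, so nothing is concluded from the count. WT CD34+ library 1 stood at 85.6% in chr9:115992001-115993000, with the others of its group at 44.9% to 53.9%. In chr9:116001001-116002000 PML-RARα CD34+ library 5 stood at 48.6%, below 56.4% to 58.6%, and PML-RARα CD34− library 20 at 50.7%, below 58.5% to 61.6%. At the single cytosine of chr9:116002001-116003000 PML-RARα CD34+ library 13 stood at 99.1% and PML-RARα CD34− library 6 at 69.8%, where all others of their groups were at 100%. Library 6 also stood at 75.7% in chr9:116012001-116013000, above 67.2% to 69.4%. PML-RARα CD34+ library 11 stood at 34.5% in chr9:116030001-116031000, below 42.7% to 44.3%, and at 0% in chr9:116067001-116068000, below 58.2% to 68.7%. PML-RARα CD34− library 12 stood at 1.24% in the island window chr9:116083001-116084000, above 0.00935% to 0.233%.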

How the results depend on the processing

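At the window that named the region the PML-RARα difference kept its direction in every alternative run, between 25.8 and 41.7 points, with adjusted p from 0.0695 to 0.649 in all but 1. Without WT CD34+ library 15 the adjusted p was 0.0452 at 34.8 points, and the count of called windows in the region was 1 instead of 0. Leaving out each library in turn gave 26.8 to 41.7 points and 0 to 1 called windows of the region. The WT difference there ran from 46.5 to 57.8 points. With the title number as a replicate block the adjusted p was 0.0999; the block gave 69 called windows and 96 called cytosines in PML-RARα maturation and 1 called window between genotypes in CD34+. It changed no call among the 15 tested windows of the region, and what the title number pairs is not stated in the labels. In a second block, chosen after the data were seen, early and late libraries of consecutive running numbers (3 and 4, 5 and 6 and so on) were paired. Both libraries of each such pair have the same genotype and title number, although no label says that they share a source. The deviations from the group means had r over 0.1 in 3 of the 10 neighbours, and in 5 of 10 the neighbour had the highest r. In this block the adjusted p was 0.211 at the window that named the region and 0.108 at 89.9 kb, with 62 called windows in all and 0 in the region. The late neighbour was higher in 4 of 5 PML-RARα neighbours at the first window (-9.78 to 74.3 points) and in 0 of 5 at the second (-37.06 to -14.01 points). The window 89.9 kb downstream ran from -27.6 to -12.9 points without passing the threshold. Its value on the shifted grid was not computed.

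The counts over all features moved more, and the cause was not tested. For PML-RARα maturation the 71 called windows became 45 at a coverage of 20, 25 with limma, 8 with only the 2 groups fitted, 0 with flowcell as a factor, 3 without the 5 libraries of high scatter, 110 on the shifted grid and 108 with windows of 1 cytosine or more, and 15 to 93 with a library left out (15 without PML-RARα CD34+ library 19, 23 without library 3, 45 without 6 and 44 without 14). The 34 called cytosines became 6, 74, 0, 61 and 0 in the first 5 of these settings, and 3 to 77 with a library left out. Between genotypes in CD34+ the 4 called windows became 1, 0, 0, 0, 2, 1 and 1 in the same settings in the same order, 0 with all 20 libraries required, and 0 to 4 with a library left out. In CD34− the 1 called window became 0 with all 20 libraries required, limma, 2 groups, flowcell or windows of 1 cytosine, 2 without the libraries of high scatter, and 0 to 2 with a library left out.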

Other observations

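Of the 46 CpGs measured on both strands, 14 lay outside the island, and most of these gave like levels on both strands. The CpG at 116012777 and 116012778 did not: its plus-strand cytosine had means of 94.7%, 88.7%, 94.7% and 85.4% in WT CD34+, WT CD34−, PML-RARα CD34+ and PML-RARα CD34− libraries, and its minus-strand cytosine 1.04%, 0.903%, 0.71% and 0.308%. At 116012831 and 116012832, in the same window, the plus strand stood at 39.4%, 39.6%, 37.8% and 41.6% and the minus strand at 96.6%, 96.8%, 99.6% and 97.0%. Both gaps were present in all 4 groups, and their cause was not tested.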
